A study of Drosophila melanogaster with 32 samples.

Results

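The Toll and Imd signalling components described here are 33 genes of the fruit fly *Drosophila melanogaster*. They are extracellular and intracellular members of both immune pathways, with peptidoglycan recognition proteins and antimicrobial effectors left out. This list, like the other gene lists used below, was chosen with earlier results of these data known. All 33 were found by their symbol among the 15364 genes with at least 1 count. RNA-Seq counts came from the whole bodies of mated Drs-GFP females, a line with a green fluorescent reporter of the drosomycin gene, and every sample was a pool of flies fed the blue food dye FD&C #1. Smurfs are flies whose whole body turns blue because the dye has left the gut, and non-Smurfs of the same cohort and age keep it in the gut. The groups were Smurfs and non-Smurfs of 20 days (4 samples each), 30 days (6 each) and 40 days (6 each), all of the same genotype and feeding. Smurfs were collected up to 1 day (9 samples) or up to 5 hours (4 samples, none of 20 days) after turning blue, or with no time recorded (3 mixed samples, 1 at each age). Non-Smurfs were collected at the same moments. Both mixed samples of the 30-day groups carry an age of 32 days in the labels.

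Toll and Imd are the signalling routes through which flies switch on antimicrobial genes. In the Toll pathway, recognition proteins start a cascade of serine proteases in the haemolymph that cleaves the ligand Spätzle, the receptor Toll then signals through Myd88, Tube and Pelle, the inhibitor Cactus is degraded, and the NF-kB factors Dorsal and Dif enter the nucleus. In the Imd pathway, peptidoglycan from bacteria is sensed by receptors that recruit the adaptor Imd, which acts through Fadd, Dredd, Tak1 and the IKK complex on the NF-kB factor Relish. Several components, such as Cactus, Necrotic and Pirk, restrain the pathway they belong to, and some of them are transcriptional targets of it.

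The total count per sample was between 12164198 and 22798065, and the lowest count of any of the 33 genes in any sample was 67. The ovary markers of whole females were present, with a summed level of 5984 to 7643 CPM (counts scaled to the library size, normalised with TMM) in Smurfs and 5960 to 8335 CPM in non-Smurfs. Of the 6 Smurfs of 40 days, 3 (1d-p, 5h-c7 and 5h-c8) lay apart from the other Smurfs. The summed level of 11 fat body markers was 15220 to 22190 CPM in these 3 and 2444 to 12840 CPM in the other 13 Smurfs. Among non-Smurfs, the 40-day sample 1d-o had 4476 CPM of 12 Imd-responsive immune genes, against 105.7 to 850.0 CPM in the other 15. In whole-body pools, fewer cells of a type and less RNA per cell cannot be told apart, and the p-values measure the spread between pools.

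The first comparison set the 16 Smurfs against the 16 non-Smurfs of all ages. Of the 33 components, 10 rose in Smurfs and 1 fell, while the other 22 did not pass the test (edgeR quasi-likelihood test, adjusted p under 0.05). Over all 10052 genes tested, 22.7% passed, 11.4% as higher and 11.3% as lower, against 33.3%, 30.3% and 3.03% of the components. Since the list was chosen with earlier results of these data known, these shares are descriptive. The genes that rose were spread over both pathways, at the secreted level (*spirit*, *nec*, *spz*), at the NF-kB factors and their inhibitor (*Rel*, *dl*, *cact*), and within the Imd branch (*pirk*, *key*, *CYLD*, *Diap2*). The gene that fell was *GNBP3*, which encodes a recognition protein for fungal glucans. The median log2FC of the components was 0.09, against -0.01 over all genes, and their values ranged from -0.45 to 1.00. None of the 6 cytoplasmic Toll components passed (1 at an unadjusted p under 0.05, *Pli*, which DESeq2 called). Within the 1-day samples 4 components passed (*spz*, *cact*, *dl* and *Rel*), within the 5-hour and the mixed samples none did, and without the mixed samples 6 did. These subsets hold fewer samples, and the share of all genes that passed in them is not given here. Such counts are therefore no result about the components alone. With the collection event (age and time of collection, shared by Smurfs and non-Smurfs) as a factor, 13 passed, the same 11 with *Pli* and *dnr1* added. At an unadjusted p under 0.05 the count was 13 components, where 35.2% of all genes passed.

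**Figure D1:**
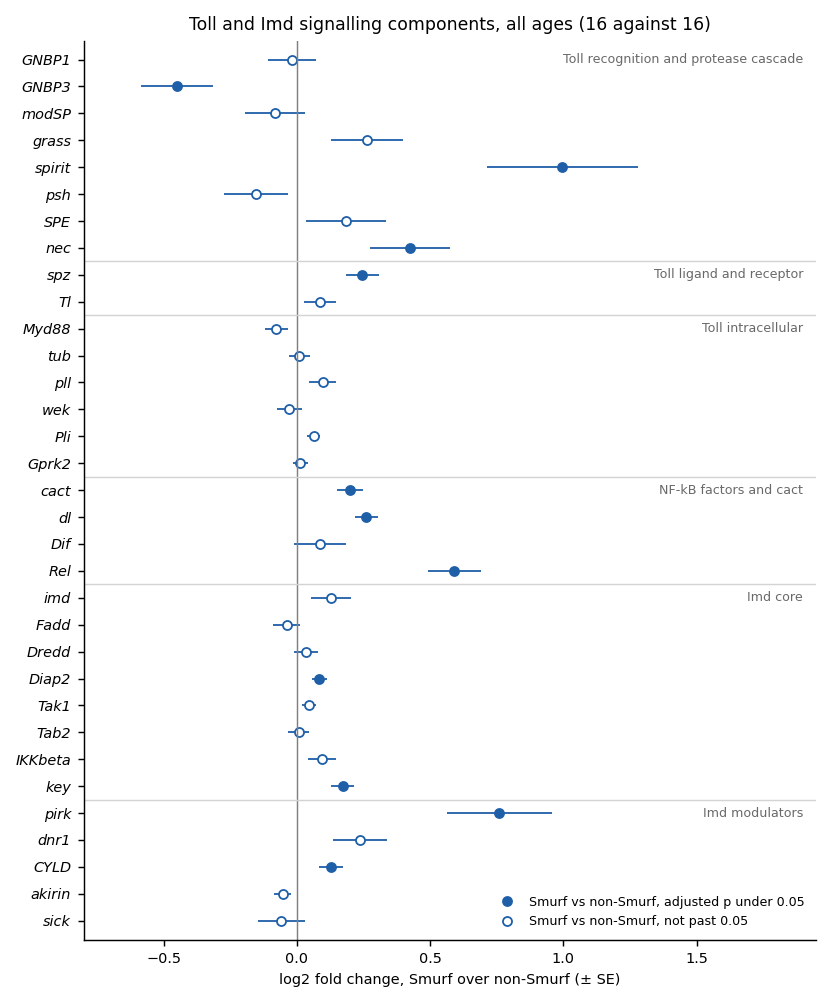
log2FC of the 33 components, Smurf over non-Smurf, in all ages (16 samples against 16), with bars of 1 SE and the genes in order of their roles. Filled points passed an adjusted p of 0.05 (edgeR), and the values run from -0.45 for *GNBP3* to 1.00 for *spirit*.

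*Rel* encodes Relish, the NF-kB factor of the Imd pathway, and it lies on chromosome arm 3R (9044183 to 9047977, annotation BDGP6.54). Its level was 275.9 CPM in the lowest Smurf, 359.6 CPM at the median and 542.4 CPM in the highest, against 196.4, 244.9 and 367.4 CPM in non-Smurfs. Every one of the 16 Smurfs lay above the mean of the non-Smurfs, although the ranges of both groups overlapped. The log2FC was 0.59 ± 0.10 (SE), a 1.51-fold higher level (edgeR adjusted p = 0.000107). Within the 1-day samples the log2FC was 0.45 (adjusted p = 0.0415), within the 5-hour samples 0.72 (adjusted p = 0.0894) and within the mixed samples 0.90 (adjusted p = 0.110).

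The genes of the Toll NF-kB factors Dorsal and Dif are neighbours on chromosome arm 2L, *dl* at 17436830 to 17450364 and *Dif* at 17413248 to 17433161. *dl* was at 149.1 CPM in the lowest Smurf, 176.5 CPM at the median and 208.4 CPM in the highest, against 127.8, 153.8 and 163.7 CPM in non-Smurfs. The lower end of the Smurfs overlapped the non-Smurfs, and 15 of 16 Smurfs lay above the non-Smurf mean (log2FC 0.26 ± 0.04, adjusted p = 0.000114). *Dif* was at 50.49 to 108.8 CPM in Smurfs and 50.70 to 91.58 CPM in non-Smurfs and did not pass (log2FC 0.09). The difference of *dl* was 0.26 in the 1-day samples (adjusted p = 0.00772), 0.16 in the 5-hour samples (adjusted p = 0.338) and 0.47 in the mixed samples (adjusted p = 0.0971).

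*cact* encodes Cactus, which holds Dorsal and Dif in the cytoplasm. Its level was 380.9 CPM in the lowest Smurf, 452.5 CPM at the median and 568.1 CPM in the highest, against 344.4, 397.5 and 460.3 CPM in non-Smurfs. The groups overlapped over much of their range, and the non-Smurf mean was exceeded by 14 of 16 Smurfs (log2FC 0.20 ± 0.05, adjusted p = 0.00407). The inhibitor and its target *dl* both rose, by 1.15-fold and 1.20-fold.

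Upstream of the receptor, *spz* encodes the Toll ligand Spätzle, and *Tl* the receptor. *spz* was at 120.5 CPM in the lowest Smurf, 156.3 CPM at the median and 194.0 CPM in the highest, against 109.3, 130.3 and 161.2 CPM in non-Smurfs. It rose in Smurfs with a log2FC of 0.25 ± 0.06 (adjusted p = 0.00407), and 13 of 16 Smurfs lay above the non-Smurf mean. In the 5-hour samples the log2FC was -0.01 (adjusted p = 0.981), against 0.30 in the 1-day samples (adjusted p = 0.00364) and 0.49 in the mixed samples (adjusted p = 0.158). The 5-hour value joins ages that went opposite ways. At 30 days Smurfs had 167.5 and 155.5 CPM, against 161.2 and 130.1 CPM in non-Smurfs. At 40 days Smurfs, both among those that lay apart, had 121.6 and 123.2 CPM, against 142.4 and 149.4 CPM. *Tl* was at 362.3 to 570.1 CPM in Smurfs and 344.8 to 516.8 CPM in non-Smurfs, and did not pass (log2FC 0.09).

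*GNBP3* was at 9.86 CPM in the lowest Smurf, 17.3 CPM at the median and 30.3 CPM in the highest, against 16.6, 24.8 and 36.3 CPM in non-Smurfs. Its level fell in Smurfs (log2FC -0.45 ± 0.14, adjusted p = 0.0157), where 14 of 16 samples lay below the non-Smurf mean. *GNBP1*, which encodes a recognition protein acting with PGRP-SA against Gram-positive bacteria, gave a log2FC of -0.02 and did not pass. The other proteases of the cascade, *modSP*, *grass*, *psh* and *SPE*, had log2FC values of -0.08, 0.26, -0.15 and 0.18 and did not pass either.

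Within the Imd branch, *key* encodes the regulatory subunit of the IKK complex. It was at 96.1 CPM in the lowest Smurf, 117.3 CPM at the median and 138.3 CPM in the highest, against 91.6, 105.6 and 119.1 CPM in non-Smurfs (log2FC 0.17 ± 0.04, adjusted p = 0.00581). The ranges overlapped, and 15 of 16 Smurfs were above the non-Smurf mean. The catalytic subunit *IKKbeta* had a log2FC of 0.09 and did not pass. *CYLD*, which encodes a deubiquitinating enzyme that acts on the IKK complex, was at 36.6 CPM in the lowest Smurf, 39.9 CPM at the median and 50.5 CPM in the highest, against 32.0, 37.5 and 41.6 CPM in non-Smurfs. Its change was small (log2FC 0.13 ± 0.04, adjusted p = 0.0366), no longer passed without the filter on low counts or without the 3 Smurfs named above (adjusted p = 0.0521 and 0.0703), and 15.0% of its exon length overlaps an antisense RNA, so that reads of both could be mixed if strand was not used in counting.

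Over all ages the remaining called components were *spirit* (log2FC 1.00 ± 0.28, adjusted p = 0.0113), *pirk* (0.76 ± 0.20, adjusted p = 0.00579), *nec* (0.42 ± 0.15, adjusted p = 0.0394) and *Diap2* (0.08 ± 0.03, adjusted p = 0.0233), whose values follow at the age where they differed with the smallest p. Leaving out 1 sample ended the call of *nec* in 16 of 32 fits and that of *CYLD* in 10. Of the 8 genes of the Imd core, *key* and *Diap2* were called (25.0%, against 22.7% of all genes), and the other 6 were not. In the Toll pathway the adaptors *Myd88*, *tub* and *wek* had log2FC values of -0.08, 0.01 and -0.03, and the kinases *pll* and *Gprk2* of 0.10 and 0.01. None of these passed. In the Imd pathway the adaptors *imd* and *Fadd* had 0.13 and -0.04, the caspase *Dredd* 0.03, and the kinase *Tak1* and its partner *Tab2* 0.05 and 0.01, none of them past the threshold. Among the modulators of Relish, *akirin* had a log2FC of -0.05 and *sick* of -0.06, and neither passed.

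Markers of other cell types moved in the same comparison. Of 9 haemocyte markers tested, 5 fell, and the summed level of all 11 listed was 582.2 to 1084 CPM in Smurfs and 765.3 to 1435 CPM in non-Smurfs. Of 11 fat body markers, 5 fell and 1 rose (2444 to 22190 CPM in Smurfs, 10120 to 30750 CPM in non-Smurfs), and of 9 gut markers, 8 fell (1538 to 4378 CPM in Smurfs, 2246 to 4831 CPM in non-Smurfs). The largest fall in each list was that of *NimC1* (log2FC -1.23), *Lsp2* (-1.84) and *Jon25Biii* (-1.89), and the fat body gene that rose was *Cyp4p1* (0.81). An antisense RNA overlaps 84.6% of the exon length of *Lsp2*, so that its reads could be mixed if strand was not used in counting. No marker of these lists was at 0 in all samples of a group. Of 14 ovary markers, 1 fell (*aub*, log2FC -0.11). The part of these shifts in the values of the components was not tested.

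**Figure D2:**
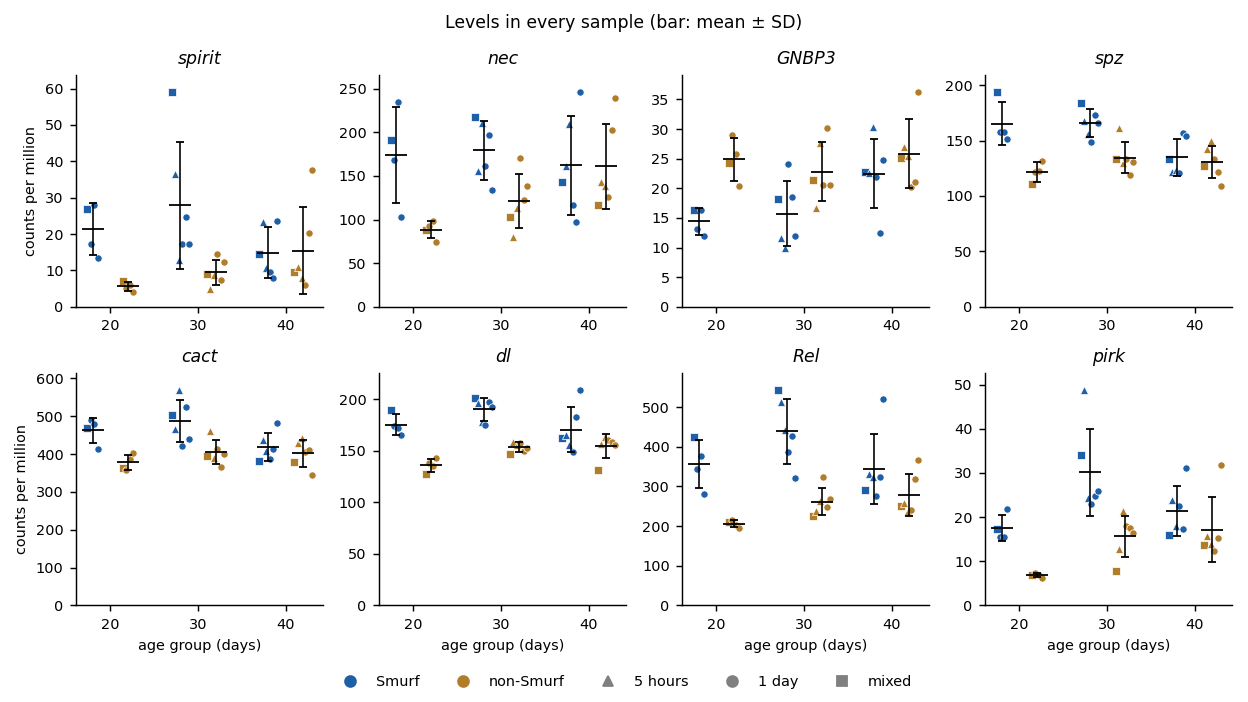
CPM in every sample by age for the 8 components called at 20 days, Smurfs in blue left of non-Smurfs in brown. Symbols give the time of collection and bars the mean ± SD (n = 4, 6 and 6 per group at 20, 30 and 40 days). At 20 days the 4 Smurfs of *pirk* lie at 15.5 to 21.8 CPM, above the 4 non-Smurfs at 6.17 to 7.44 CPM, and at 40 days the groups overlap for all 8 genes. For *pirk* at 40 days only the non-Smurf 1d-o (31.9 CPM) lies above the lowest Smurf (16.0 CPM).

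The same comparison was made within each age. At 20 days 7 components rose in Smurfs and 1 fell (24.2% of them, against 11.0% of 10529 genes, 4.38% as higher and 6.64% as lower). At 30 days 9 rose and 1 fell (30.3%, against 14.8% of genes, 8.22% as higher and 6.61% as lower), and at 40 days none passed (against 0.0475% of genes). An unadjusted p under 0.05 was reached by 10 components at 20 days (24.4% of genes) and by 15 at 30 days (28.5% of genes). At 40 days 4 components had an unadjusted p under 0.05 (10.7% of genes), all higher in Smurfs (*CYLD*, *dl*, *key* and *Rel*), and DESeq2 called none. The genes *spirit*, *spz*, *cact*, *dl*, *Rel* and *pirk* rose at both 20 and 30 days. At 20 days 5 components passed without the Smurf M-4 and 5 without the Smurf 1d-e (in both cases *GNBP3*, *nec* and *cact* were lost). Leaving out 1 sample ended the 20-day call of *GNBP3* in 7 of 8 fits and that of *cact* in 4 of 8. At 30 days 6 passed without the Smurf M-10, 4 without both samples labelled 32 days, and none within the 1-day samples.

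*pirk*, whose product binds the peptidoglycan receptors of the Imd pathway and dampens their signal, passed at 20 and at 30 days. At 20 days it was at 17.2, 15.5, 15.6 and 21.8 CPM in the 4 Smurfs, against 6.97, 7.44, 6.95 and 6.17 CPM in the 4 non-Smurfs. The groups did not overlap, with each Smurf above each non-Smurf, and the log2FC was 1.37 ± 0.29 (adjusted p = 0.00332). At 30 days the log2FC was 0.97 ± 0.23 (adjusted p = 0.00507), with Smurfs at 23.1 to 48.7 CPM and non-Smurfs at 7.72 to 21.3 CPM, again without overlap. At 40 days Smurfs had 16.0 to 31.1 CPM and non-Smurfs 12.2 to 31.9 CPM, and the log2FC of 0.34 ± 0.23 did not pass (adjusted p = 0.638). The overlap at 40 days came from the non-Smurf 1d-o (31.9 CPM), and the other 5 non-Smurfs had 12.2 to 15.8 CPM.

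*nec* encodes Necrotic, a serpin that inhibits the protease cascade. At 20 days it was at 191.6, 168.2, 234.7 and 103.2 CPM in Smurfs, against 88.3, 92.4, 98.1 and 74.8 CPM in non-Smurfs. The groups did not overlap, with the lowest Smurf (1d-f) close to the non-Smurfs (log2FC 1.00 ± 0.27, adjusted p = 0.0150). Without Smurf 1d-e the adjusted p was 0.0666 and without Smurf M-4 it also missed the threshold. At 30 days the log2FC was 0.59 (adjusted p = 0.0676), and at 40 days both groups spread widely, with 97.2 to 246.6 CPM in Smurfs and 116.2 to 239.2 CPM in non-Smurfs.

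*spirit*, a serine protease gene of the cascade upstream of the Spätzle-processing enzyme, had the largest log2FC of the components at 20 and 30 days. At 30 days it was at 12.9 CPM in the lowest Smurf, 20.9 CPM at the median and 59.1 CPM in the highest, against 4.98, 8.89 and 14.4 CPM in non-Smurfs. The ranges overlapped only at the lowest Smurf (log2FC 1.58 ± 0.40, adjusted p = 0.00879). The 2 highest Smurfs were the mixed sample M-10 (59.1 CPM) and the 5-hour sample c3 (36.6 CPM), and without both samples labelled 32 days the log2FC was 1.18 (adjusted p = 0.0830). At 20 days the log2FC was 1.96 ± 0.51 (adjusted p = 0.0132). At 40 days it was the non-Smurf 1d-o that had the highest level, 37.5 CPM, and the log2FC was -0.04 ± 0.40.

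Among genes that passed at 30 days and not over all ages or at 20 days, *dnr1* encodes a ubiquitin ligase that limits Dredd. It was at 22.7 CPM in the lowest Smurf, 27.6 CPM at the median and 31.5 CPM in the highest, against 14.2, 18.9 and 26.5 CPM in non-Smurfs, with overlapping ranges (log2FC 0.49 ± 0.17, adjusted p = 0.0465). *Pli* encodes Pellino, a ubiquitin ligase that binds Pelle, and was at 128.8 CPM in the lowest Smurf, 134.1 CPM at the median and 135.5 CPM in the highest, against 118.5, 123.7 and 137.6 CPM in non-Smurfs. Only the non-Smurf 5h-c1 reached the level of the Smurfs (log2FC 0.12 ± 0.04, adjusted p = 0.0228). *Myd88*, the adaptor of Toll, fell (log2FC -0.17 ± 0.06, adjusted p = 0.0410), and *Diap2*, the ubiquitin ligase of the Imd complex, rose at this age as over all ages. *Diap2* was at 103.8 CPM in the lowest Smurf, 109.5 CPM at the median and 113.6 CPM in the highest, against 92.6, 99.8 and 104.8 CPM in non-Smurfs, so that the ranges met at their edges (log2FC 0.15 ± 0.04, adjusted p = 0.0204). Of these 30-day calls, leaving out 1 sample ended that of *dnr1* in 9 of 12 fits, *Myd88* in 8, *Pli* in 3 and *Diap2* in 2. *Pli* was also lost with DESeq2, with RLE size factors, without the filter on low counts and with only samples of that age, and *Myd88* with only samples of that age and with at least 10 counts in every sample. *dnr1* was lost with RLE size factors and, like *Diap2*, without the filter.

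**Figure D3:**
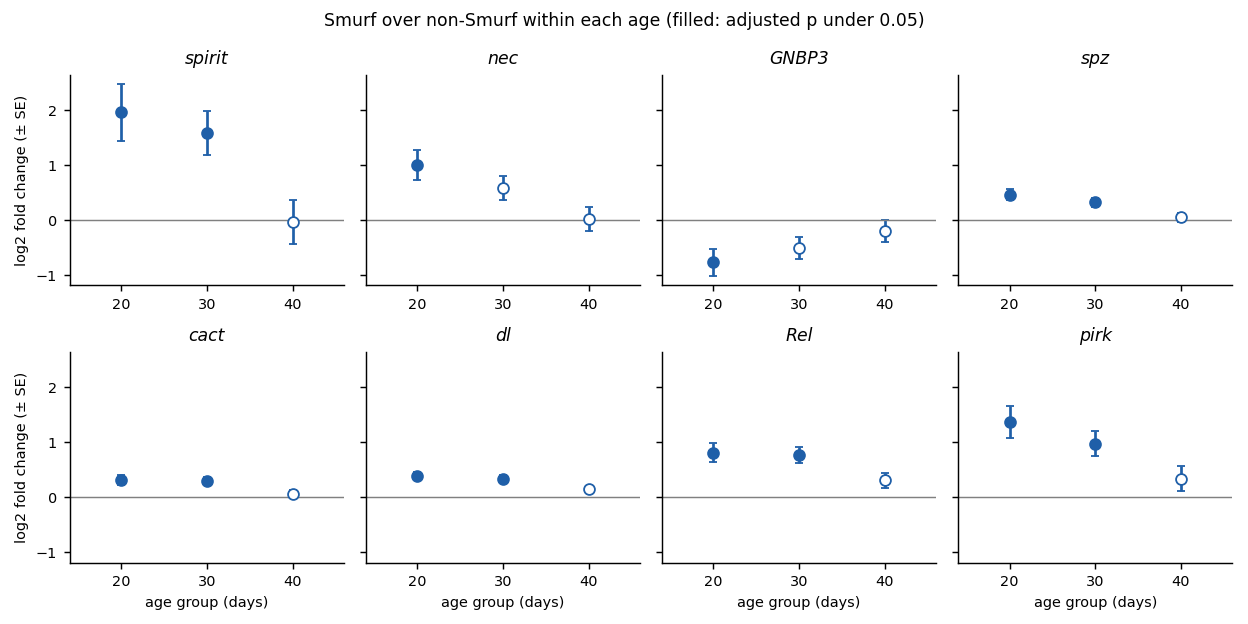
log2FC of Smurfs over non-Smurfs (± SE) within 20, 30 and 40 days for the 8 components called at 20 days. Filled points were past an adjusted p of 0.05 (edgeR, all 32 samples in a model of 6 groups). For *Rel* the values were 0.81, 0.77 and 0.31, and none of the 8 genes passed at 40 days.

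The 8 genes plotted by age were the 8 called at 20 days, a choice that by itself favours larger values at that age. Their log2FC was nearer to 0 at 40 days than at 20 days, but the change itself did not pass a test. In the contrast of the Smurf effect at 40 days against that at 20 days, none of the 33 components was called (0.256% of 10529 genes were, 0.038% as lower), 9 had an unadjusted p under 0.05 (12.6% of genes), and DESeq2 called none either. The lowest adjusted p was that of *spz* (difference of log2FC -0.41 ± 0.13, adjusted p = 0.165). The difference was -1.99 ± 0.65 for *spirit* (adjusted p = 0.168), -0.98 ± 0.34 for *nec* (adjusted p = 0.201), -1.03 ± 0.37 for *pirk* (adjusted p = 0.217) and -0.50 ± 0.22 for *Rel* (adjusted p = 0.335). At 40 days the 95% interval of the log2FC of *Rel* (normal approximation from its SE) ran from 0.03 to 0.58. Without the 3 Smurfs that lay apart, *Rel* had a log2FC of 0.42 (adjusted p = 0.202) and *dl* of 0.25 (adjusted p = 0.0571) at 40 days, still with none called. Over all ages, leaving these 3 out gave 16 called components in place of 11, with *grass*, *psh*, *pll*, *Pli*, *IKKbeta* and *dnr1* added and *CYLD* lost. The 3 were chosen after seeing the data, and the share of all genes called without them is not given here. That count is therefore no result about the components alone.

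Age was then compared within each state, 40 against 20 days. In Smurfs 5 components rose and 2 fell (21.2%, against 17.6% of 10353 genes, 10.5% as higher and 7.06% as lower), and 12 had an unadjusted p under 0.05 (34.3% of genes). The genes that rose were *modSP*, *Dif*, *GNBP1*, *Myd88* and *sick*, of which none rose in Smurfs against non-Smurfs, and those that fell were *pll* and *spz*. The 5 that rose leaned the same way in non-Smurfs, where none of them passed. There the 20-day mean was exceeded by all 6 samples of 40 days for *GNBP1* and *modSP*, by 5 for *Dif* and *sick*, and by 4 for *Myd88*. Without the Smurf 1d-d of 20 days 3 components passed, and without the Smurf M-4 of 20 days 4 did. Between 30 and 20 days none passed in Smurfs (1 at an unadjusted p under 0.05, *pirk*, against 6.46% of genes, and none by DESeq2), where 0.00966% of all genes did.

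*modSP*, which encodes the modular serine protease that starts the cascade after recognition, was at 27.4 CPM in the lowest Smurf of 40 days, 37.3 CPM at the median and 44.9 CPM in the highest, against 21.7, 23.2, 23.4 and 24.2 CPM at 20 days. All 6 older samples lay above all 4 younger ones (log2FC 0.65 ± 0.13, adjusted p = 0.00723). The 4 Smurfs of 20 days were also below all 4 non-Smurfs of 20 days (25.5, 34.6, 27.6 and 29.8 CPM), although *modSP* was not called at that age. *GNBP1*, which acts with it, was at 19.2 CPM in the lowest sample of 40 days, 22.1 CPM at the median and 28.6 CPM in the highest, against 17.6, 15.6, 17.2 and 13.2 CPM at 20 days (log2FC 0.51 ± 0.13, adjusted p = 0.0187). These groups did not overlap either.

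*Dif* was at 71.9 CPM in the lowest Smurf of 40 days, 80.2 CPM at the median and 108.8 CPM in the highest, against 56.1, 64.5, 63.8 and 50.5 CPM at 20 days, without overlap (log2FC 0.55 ± 0.13, adjusted p = 0.0153). Its neighbour *dl*, which rose in Smurfs against non-Smurfs, did not pass with age in Smurfs. *Myd88* was at 93.7 CPM in the lowest sample of 40 days, 98.0 CPM at the median and 102.3 CPM in the highest, against 79.5, 88.9, 83.8 and 83.9 CPM at 20 days (log2FC 0.21 ± 0.05, adjusted p = 0.0183). *sick*, whose product sickie takes part in the activation of Relish in fly cells, was at 37.0 CPM in the lowest sample of 40 days, 42.3 CPM at the median and 49.1 CPM in the highest, against 31.0, 26.9, 36.4 and 32.7 CPM at 20 days (log2FC 0.40 ± 0.12, adjusted p = 0.0325). Neither gene had overlapping groups.

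*pll* encodes the kinase Pelle of the Toll receptor complex. It was at 47.5 CPM in the lowest Smurf of 40 days, 49.4 CPM at the median and 60.4 CPM in the highest, against 61.3, 66.4, 59.2 and 59.7 CPM at 20 days. A single sample of 40 days (1d-r) reached the level of the younger ones (log2FC -0.28 ± 0.07, adjusted p = 0.0161). *spz* fell with a log2FC of -0.30 ± 0.09 (adjusted p = 0.0317), and without the mixed Smurf M-4, the highest of the 20-day samples at 194.0 CPM, its log2FC was -0.22 (adjusted p = 0.117). With the 3 Smurfs that lay apart left out, only *modSP* of the 7 passed, and within the 1-day samples none did, while the 7 log2FC values kept their sign. These fits hold fewer samples, and the share of all genes that passed in them is not given here. Leaving out 1 sample ended the call of *sick* in 6 of 10 fits and that of *spz* in 5 of 10. In Smurfs of 40 against 20 days, 4 gut markers, 2 fat body markers and 1 haemocyte marker (*Pxn*, log2FC 0.61) rose as well, the ovary marker *swa* fell (log2FC -0.30, adjusted p = 0.00895), and the part of these shifts was not tested.

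In non-Smurfs of 40 against 20 days 2 components rose and none fell (6.06%, against 1.89% of 10260 genes, 1.57% as higher and 0.322% as lower), and 7 had an unadjusted p under 0.05 (16.4% of genes). *SPE* encodes the Spätzle-processing enzyme, the last protease before the ligand, and 8.4% of its exon length overlaps a gene on the same strand. It was at 60.1 CPM in the lowest non-Smurf of 40 days, 77.5 CPM at the median and 94.5 CPM in the highest, against 47.6, 41.2, 45.8 and 42.7 CPM at 20 days, with no overlap (log2FC 0.80 ± 0.16, adjusted p = 0.0216). *pirk* was at 12.2 CPM in the lowest non-Smurf of 40 days, 14.6 CPM at the median and 31.9 CPM in the highest, against 6.97, 7.44, 6.95 and 6.17 CPM at 20 days, also without overlap (log2FC 1.30 ± 0.28, adjusted p = 0.0310). Without the sample 1d-o, which held the highest level, the log2FC of *pirk* was 1.04 (adjusted p = 0.0370) and that of *SPE* 0.74 (adjusted p = 0.0449). Without any single one of the 4 non-Smurfs of 20 days neither gene passed, without the non-Smurf 5h-c5 only *SPE* did, without the non-Smurf M-13 there were 4 called components, and with all 32 samples in a model of 6 groups only *pirk* did. DESeq2 called 5, adding *spirit*, *nec* and *Rel*, which had log2FC values of 1.44, 0.85 and 0.43. Between 30 and 20 days none passed in non-Smurfs (0.00975% of all genes did, 5 components had an unadjusted p under 0.05, against 7.76% of genes), and DESeq2 called *pirk* alone. In non-Smurfs of 40 against 20 days the haemocyte marker *Hml* fell (log2FC -1.13), as did the gut markers *Npc2d* (-1.20) and *LManI* (-0.40), while the gut marker *Mal-A1* (0.67) and the fat body marker *Cyp4p1* (0.80) rose. The part of these shifts in the values of *SPE* and *pirk* was not tested.

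**Figure D4:**
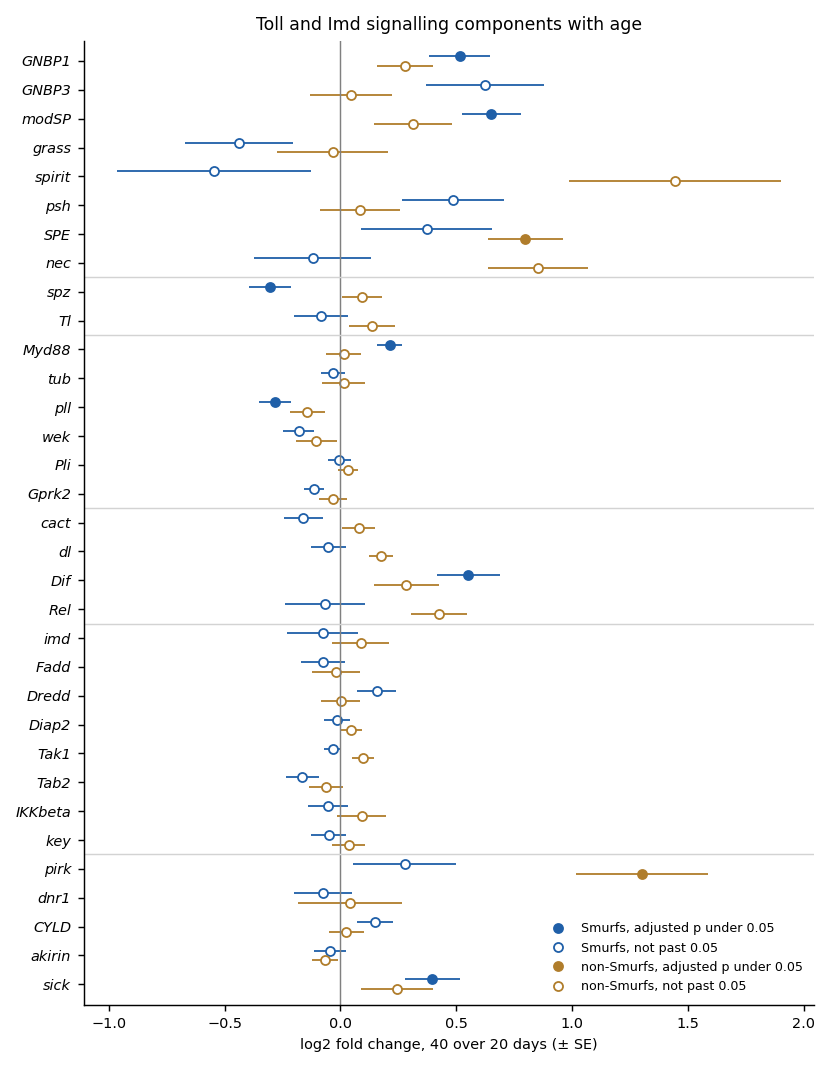
log2FC of the 33 components at 40 over 20 days (± SE), for Smurfs in blue above non-Smurfs in brown, with filled points past an adjusted p of 0.05 (edgeR within each state). In Smurfs 7 points are filled, from -0.30 for *spz* to 0.65 for *modSP*, and in non-Smurfs only *SPE* (0.80) and *pirk* (1.30).

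Collections at 1 day and at 5 hours were compared at 30 and 40 days, with age as a factor. For Smurfs these times are upper limits of the time since turning blue, so the windows overlap. The 5-hour Smurfs of 40 days, 5h-c7 and 5h-c8, were among the 3 that lay apart, and the part of this in the comparison was not tested. In Smurfs none of the components passed (0.0% of 10541 genes did). At an unadjusted p under 0.05 there were 2, *dnr1* and *Tl* (6.76% of genes), and DESeq2 called none. In non-Smurfs collected at the same moments, none passed either (0.0864% of 10422 genes, 5 components at an unadjusted p under 0.05, against 22.7% of genes). *dnr1* gave the lowest p in both, with a log2FC of 0.33 ± 0.08 in Smurfs (adjusted p = 0.584) and 0.69 ± 0.14 in non-Smurfs (adjusted p = 0.0912), and DESeq2 called it in non-Smurfs. Non-Smurfs have not passed through the transition, so in them the comparison is one of collection moments alone.

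Levels of different genes can be set side by side only per length of transcript. As CPM per kb of exon, the means in Smurfs were highest for *cact* (136.8), *akirin* (119.5), *Rel* (109.4) and *nec* (105.1), and in non-Smurfs for *akirin* (124.0), *cact* (119.3), *Tl* (81.4) and *nec* (78.4). *akirin* encodes a nuclear cofactor of Relish. The lowest was *sick* in both states, at 2.53 in Smurfs and 2.63 in non-Smurfs. The length used was that of the exons of all transcripts of a gene together, 14459 bp for *sick*, so its last place may not reflect a low level of the transcripts in use. *Rel* stood at 72.6 in non-Smurfs, next to *key* at 73.9. The spread within groups differed among the components, with an SD of log2 CPM of 0.06 for *Tak1*, the kinase of the Imd pathway, 0.06 for *Pli* and 0.07 for *Diap2*, and of 0.70 for *spirit*, 0.40 for *pirk* and 0.40 for *nec*.

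Other genes of the pathways, from a list of 39 typed for this purpose (31 with enough counts over all ages), were tested in the same fits. Over all ages 6 of the 31 rose and none fell (19.4%, against 22.7% of all genes, with a median log2FC of 0.01). The largest were *spz3*, a paralog of the Toll ligand (log2FC 0.67 ± 0.18, adjusted p = 0.00799), *Hayan*, a protease that acts with Persephone (0.61 ± 0.15, adjusted p = 0.00435), and *Tehao*, a Toll-related receptor (0.46 ± 0.13, adjusted p = 0.0129). Antisense RNAs overlap 63.1% of the exon length of *Tehao* and 36.2% of that of *Hayan*, so that reads could be mixed if strand was not used in counting. Of 32 tested, 2 rose at 20 days (6.25%, against 11.0% of all genes), 4 rose and 1 fell at 30 days (15.6%, against 14.8%), and none passed at 40 days (edgeR, 3 at an unadjusted p under 0.05).

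The effector genes of the pathways gave a readout to set beside the components. All 12 Imd-responsive genes rose in Smurfs over all ages (median log2FC 2.20, largest *edin* at 3.23), and 13 of 14 Toll-responsive genes did (median 0.86, largest *Mtk* at 1.34). At 20 days the medians were 4.16 and 1.57, at 30 days 3.39 and 1.32, and at 40 days 0.41 and 0.35, with none of the 26 genes passing at 40 days (edgeR, none at an unadjusted p under 0.05). The summed Imd-responsive level at 40 days was 961.5 to 3408 CPM in Smurfs. It was 4476 CPM in the non-Smurf 1d-o and 382.5 to 850.0 CPM in the other 5 non-Smurfs. The Toll-responsive level was 1440 to 6077 CPM in Smurfs, 4540 CPM in 1d-o and 1756 to 3819 CPM in the other 5. Medians without 1d-o are not given here.

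Across samples of 1 state, the level of 4 components was related to the mean level of the effectors, on the log2 CPM scale, in 8 relations tested with 100000 two-sided permutations. *Rel* followed the Imd-responsive genes in the 16 Smurfs (Pearson r = 0.80, permutation p = 0.00023, adjusted p = 0.00046, Spearman rho = 0.79, permutation p = 0.00039, adjusted p = 0.00104) and in the 16 non-Smurfs (r = 0.88, permutation p = 1e-05, the smallest that the permutations can give, adjusted p = 8e-05, rho = 0.87, permutation p = 3e-05, adjusted p = 0.00024). Without the 2 samples farthest from the median of *Rel*, r was 0.74 (rho = 0.70) in Smurfs and 0.80 (rho = 0.81) in non-Smurfs. Within the 9 samples of 1 day, r was 0.63 in Smurfs (exact permutation p = 0.0679, rho = 0.70, exact permutation p = 0.0433) and 0.92 in non-Smurfs (exact permutation p = 9.09e-05).

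*pirk* gave r = 0.69 in Smurfs (permutation p = 0.00294, adjusted p = 0.00392, rho = 0.53, permutation p = 0.036, adjusted p = 0.0489) and r = 0.79 in non-Smurfs (permutation p = 0.00012, adjusted p = 0.00032, rho = 0.72, permutation p = 0.00212, adjusted p = 0.00424). In Smurfs the relation rested on the 30-day samples M-10 and 5h-c3, without which r was 0.34 (permutation p = 0.232, rho = 0.30, permutation p = 0.293), and within the 1-day Smurfs r was 0.31 (exact permutation p = 0.417). In non-Smurfs r was 0.67 without the 2 farthest samples and 0.87 within the 1-day samples (exact permutation p = 0.00166).

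*nec* followed the Toll-responsive genes in Smurfs (r = 0.72, permutation p = 0.00186, adjusted p = 0.00298, rho = 0.54, permutation p = 0.0367, adjusted p = 0.0489) and in non-Smurfs (r = 0.88, permutation p = 3e-05, adjusted p = 0.00012, rho = 0.81, permutation p = 0.00031, adjusted p = 0.00104). Without the 2 farthest samples r was 0.62 in Smurfs (permutation p = 0.0172) and 0.73 in non-Smurfs (permutation p = 0.00355). By rank the relation in Smurfs no longer held without them (20-day 1d-f and 40-day 1d-q; rho = 0.34, permutation p = 0.234), while in non-Smurfs rho was 0.71 (permutation p = 0.00603). With only the 1-day samples kept, Pearson r came to 0.85 in Smurfs (exact permutation p = 0.00567) and 0.97 in non-Smurfs (exact permutation p = 1.38e-05). For *cact*, whose product is degraded when Toll signals, no relation passed in Smurfs (r = 0.45, permutation p = 0.0812, adjusted p = 0.0928, rho = 0.30, permutation p = 0.258, adjusted p = 0.295) or in non-Smurfs (r = -0.16, permutation p = 0.568, adjusted p = 0.568, rho = 0.04, permutation p = 0.884, adjusted p = 0.884). Without the 2 farthest non-Smurfs, 1d-o and 5h-c1, the sign in non-Smurfs turned (r = 0.43, permutation p = 0.121), and within the 1-day Smurfs r was 0.73 (exact permutation p = 0.0294, rho = 0.67, exact permutation p = 0.0589). The p-values of these subsets are not adjusted. Ages were pooled in all these relations, and samples of 1 state share their ages and collection days.

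**Figure D5:**
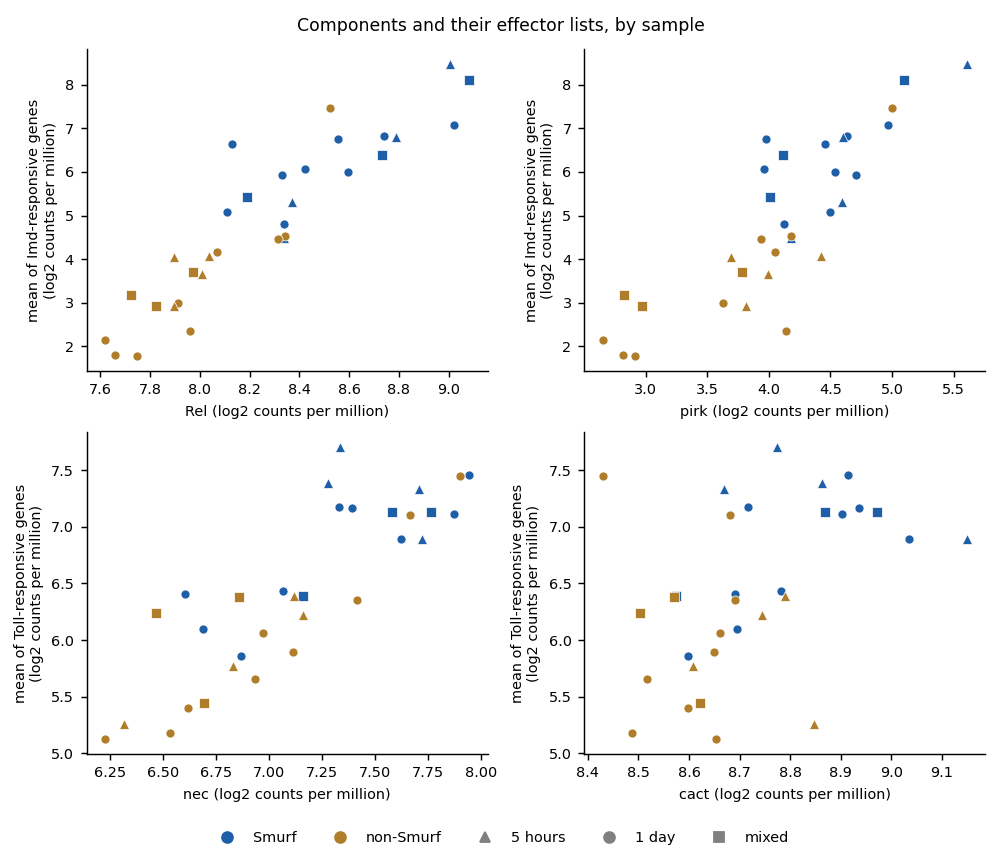
Each point is 1 sample, Smurfs in blue and non-Smurfs in brown, with the log2 CPM of a component on the horizontal axis and the mean log2 CPM of its effector list on the vertical axis (12 Imd-responsive genes for *Rel* and *pirk*, 14 Toll-responsive genes for *nec* and *cact*). Points rise to the right for *Rel* (r = 0.80 in Smurfs and 0.88 in non-Smurfs), and for *cact* in non-Smurfs r was -0.16.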

How the data were processed

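Total RNA was extracted from 32 pools of mated Drs-GFP females and, per the paper, sequenced from stranded mRNA libraries. The authors deposited a matrix of raw read counts per gene (17737 genes). Per the submitters' processing notes, reads were checked with FastQC, aligned with HISAT2 and counted over genes with featureCounts on BDGP6; the strand setting and the treatment of multi-mapping reads are not given in the sources used here. Samples were grouped by their labels into Smurfs and non-Smurfs of 20, 30 and 40 days. Replicate identifiers are unique letters or numbers and pair no samples, but Smurfs and non-Smurfs share collection events, used as a block in an alternative.

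Counts were tested with edgeR 4.0.16 (R 4.3.3) by the quasi-likelihood test, with TMM normalisation, its filter on low counts and Benjamini-Hochberg adjustment over all genes tested (threshold 0.05, prior count 2). The comparison over all ages and those with age used the samples concerned, and those within each age and the change of the Smurf effect used all 32 samples in a model of 6 groups. Alternatives were DESeq2 1.42.0, RLE size factors, no filter, at least 10 counts in every sample, other models, subsets by collection and leaving out each replicate. Leaving out 3 Smurfs that lay apart was chosen after seeing the data. The code was tested on simulated data. Gene positions come from the BDGP6.54 annotation, joined by gene ID. A component is described in full where it passed in at least 1 comparison, with the values of the comparison of its smallest adjusted p, and the others by ranges and counts. The members and gene lists were chosen with earlier results of these data known. No sequences are printed. Depth was 12164198 to 22798065 counts per sample, and replicates differed by more than counting noise.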

Additional observations from a re-analysis of the deposited data

Results flagged for a closer look

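Of 120 sets of values (1 component in 1 group of 4 to 6 samples), 9 held a sample whose gap to its neighbour took up an unusually large share of the group's range (Dixon's 95% limits, which chance passes in about 1 of 20 sets). Values are log2 CPM. The non-Smurf 1d-o of 40 days had the highest *pirk*, at 5.00, with the others at 3.63 to 3.99, and the highest *GNBP1*, at 4.74, with the others at 4.22 to 4.36. The Smurf 1d-r of 40 days had *Rel* at 9.02, with the others at 8.11 to 8.37. The Smurf 1d-q of 40 days had *GNBP3* at 3.65, below the others at 4.46 to 4.93. The non-Smurf M-13 of 40 days had *dl* at 7.04, below the others at 7.28 to 7.36. The Smurf M-4 of 20 days had *spz* at 7.60, with the others at 7.25 to 7.30. At 30 days the Smurf 1d-l had *SPE* at 5.25, with the others at 6.01 to 6.28. *Pli* was at 7.01 in the Smurf 1d-j of 30 days, with the others at 7.06 to 7.08, and at 7.11 in the non-Smurf 5h-c1 of 30 days, with the others at 6.89 to 6.96.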

How the results depend on the processing

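The number of called components in Smurfs against non-Smurfs of all ages was 11, and became 4 in the 1-day samples, 0 in the 5-hour and 0 in the mixed samples, 6 without the mixed samples and 19 without the 40-day samples. Leaving out 1 replicate gave 9 to 13. At 20 days (8 called) it was 2 in the 1-day samples and 5 to 9 without 1 replicate, and at 30 days (10 called) 0 in the 1-day samples, 4 without both samples labelled 32 days and 6 to 13 without 1 replicate. For 40 against 20 days in Smurfs (7 called) it was 0 in the 1-day samples, 1 without the 3 Smurfs that lay apart (chosen after seeing the data) and 3 to 9 without 1 replicate. For 40 against 20 days in non-Smurfs (2 called) it was 5 by DESeq2, 1 in the model of 6 groups and 0 to 4 without 1 replicate. DESeq2 called 1 component in non-Smurfs of 30 against 20 days and 1 in non-Smurfs of 1 day against 5 hours, where edgeR called 0. Subsets hold fewer samples, the share of all genes called under each alternative is not given here, and other causes were not tested.

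Of the correlations in Smurfs, r within the 1-day samples was 0.632 for *Rel* and 0.307 for *pirk*, with unadjusted p-values above 0.05, and 0.731 for *cact*, with one below it. By rank, *Rel* was below 0.05 and *cact* above it (rho = 0.70, exact permutation p = 0.0433 for *Rel* and rho = 0.67, exact permutation p = 0.0589 for *cact*). The r of *pirk* was 0.34 without the 2 farthest samples, and that of *cact* in non-Smurfs turned to 0.433. The log2FC of *spz* over all ages was -0.00814 in the 5-hour samples (adjusted p = 0.981), where Smurfs were higher on average at 30 days and lower at 40 days. Of the other values of single genes under an alternative, 770 kept direction and call and 166 kept the direction only. Single samples could not be paired, since replicate identifiers are not shared between groups. With the collection event as a block, 13 components were called over all ages, including all 11.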
